A study of Drosophila melanogaster with 3 samples.

Results

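The Cpr genes are a family of Drosophila melanogaster genes for secreted cuticle proteins, named for their place on the polytene chromosome map. They were taken as the protein-coding genes of the dm6 gene models whose symbol is Cpr followed by a digit, which gave 70 of 13945 protein-coding genes. At these genes ChIP-seq mapped the binding of Lola-RI, which is one of many isoforms of Lola, a transcription factor with a BTB domain and zinc fingers. The labels describe an immunoprecipitation with an anti-GFP antibody, although their antibody field reads lola. All material came from 1 transgenic line that stably expressed Lola-RI with eGFP at its C terminus, as whole wandering larvae of the third instar, males and females pooled, of unknown age. The 3 biological replicates formed 1 group, with no second genotype, stage or treatment, and the sources used here do not give the promoter that drives the transgene. The deposited lists hold no read counts, so the depth is unknown.

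Cuticle is laid down by epidermal and tracheal cells as chitin fibres in a protein matrix, and most Cpr proteins carry the Rebers and Riddiford consensus, a domain that binds chitin. Their genes are known for short bursts of transcription timed to the moults by ecdysone, the insect moulting hormone. Wandering larvae have left the food and are near pupariation, when the larval cuticle is remade into the pupal case. In whole larvae, a site bound in few cells and a site bound weakly in many cannot be told apart.

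Promoters of Cpr genes seldom held a Lola-RI summit. In the irreproducible discovery rate (IDR) list, the authors' list of 9202 pooled peaks that passed their IDR threshold, 5 of the 70 members (7.14%) had a summit within 500 bp of a transcription start site (TSS), against 34.0% of all protein-coding genes. These were Cpr62Ba, Cpr67Fb, Cpr72Ec and Cpr78Ca on 3L and Cpr12A on X.

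The sequence at those 5 summits is shown because these are the sites at which the family was bound. Each line holds 101 bases of the release 6 genome (dm6) centred on the summit, read 5′ to 3′ on the gene's strand, with capitals for consensus motifs searched on both strands. The motifs were TATAAA of the TATA box, the initiator core TCAGT, the GAGA factor repeat GAGAG, the nuclear receptor site AAGGTCA and the shorter AGGTCA contained in it, the DNA replication-related element TATCGATA, the E boxes CAGCTG and also CACGTG, and the GATA factor motif GATAAG.
Cpr62Ba, chr3L:1831948-1832048, minus strand: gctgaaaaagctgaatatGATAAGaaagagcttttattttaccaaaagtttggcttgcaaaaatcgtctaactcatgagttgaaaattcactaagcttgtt
Cpr67Fb, chr3L:10893648-10893748, plus strand: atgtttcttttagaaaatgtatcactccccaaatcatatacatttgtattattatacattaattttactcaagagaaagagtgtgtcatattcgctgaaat
Cpr72Ec, chr3L:16367771-16367871, minus strand: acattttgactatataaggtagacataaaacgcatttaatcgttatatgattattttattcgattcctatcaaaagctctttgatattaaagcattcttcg
Cpr78Ca, chr3L:21292782-21292882, minus strand: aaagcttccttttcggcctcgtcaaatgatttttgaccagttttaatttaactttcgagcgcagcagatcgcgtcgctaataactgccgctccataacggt
Cpr12A, chrX:13543331-13543431, plus strand: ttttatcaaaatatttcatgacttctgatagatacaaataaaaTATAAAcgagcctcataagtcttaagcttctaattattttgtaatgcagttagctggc

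Of these windows, 1 held GATAAG (Cpr62Ba), 1 held TATAAA (Cpr12A) and 3 held none of the motifs. Over all 9202 IDR summits, 6.55% of such windows held GATAAG and 16.9% held TATAAA. The GC content was 44.6% at Cpr78Ca and between 26.7% and 31.7% at the other 4, beside a median of 38.6% over all IDR summits. The window at Cpr67Fb lies wholly within an exon of the noncoding antisense gene asRNA:CR45171, and the one at Cpr78Ca reaches 19 bases into annotated exon.

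Cpr62Ba had the highest-scoring Cpr promoter peak. The score is the authors' own value per peak, its scale is not stated, and here it serves for ranking alone. The summit lay 215 bp upstream of the TSS at rank 554 of the IDR list, in a peak on 3L from 1831613 to 1832422, and at rank 644, 662 and 498 in replicates 1, 2 and 3. Its distance from the TSS was 216, 221 and 201 bp there, so all 3 replicates placed it within 20 bp. Cpr62Bb, the neighbour in the same orientation, had this summit 3166 bp away.

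Cpr78Ca had the summit nearest to a TSS, 32 bp upstream at rank 2421, in a peak on 3L from 21292589 to 21293111. Its rank was 2620, 4219 and 1752 in replicates 1, 2 and 3. The replicate summits lay 62, 11 and 32 bp upstream of the TSS, all within 100 bp of each other. Cpr62Ba and Cpr78Ca were the only members with a promoter summit among the 9202 highest-scoring peaks of every replicate, the length to which replicate lists were shortened for comparison with the IDR list. They were 2 of 70, against 27.3% of all protein-coding genes in all 3 shortened lists.

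The other 3 bound members had weaker or less repeatable peaks. At Cpr72Ec the summit was 481 bp upstream at rank 6390, with ranks 6494 and 5435 in replicates 1 and 3. Replicate 2 had no summit within 500 bp of that TSS in its full list of 30000 peaks. At Cpr12A, 262 bp upstream and at rank 6564, the ranks were 5770, 6581 and 9730 in replicates 1, 2 and 3 of the full lists. At Cpr67Fb, 475 bp upstream and at rank 7402, they were 5494, 9728 and 10928. Replicate 3 for Cpr12A, and replicates 2 and 3 for Cpr67Fb, thus fell past position 9202.

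The 500 bp limit ran through the small 72E group. Cpr72Ec (481 bp) and Cpr67Fb (475 bp) lay just inside it, and Cpr72Eb, with a summit 517 bp upstream at rank 4903, lay just outside. In replicate 2 that summit was 498 bp from Cpr72Eb, which was therefore called there at rank 4456 and in neither other replicate. The next members outside the limit were Cpr51A at 995 bp, Cpr49Ad at 1091 bp, Cpr23B at 1195 bp, Cpr72Ea at 1288 bp, Cpr97Eb at 1334 bp, Cpr65Ec at 1608 bp and Cpr78Cb at 1660 bp.

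The shortened replicate lists gave the same low share. Members with a promoter summit numbered 5, 4 and 4 in replicates 1, 2 and 3, or 6.19% ± 0.825 (SD, n = 3), against 33.7%, 32.5% and 36.2% of all protein-coding genes (34.1% ± 1.90). The ranges do not overlap. Members are genes, not replicates, and no test was run over them. Cpr genes are short, with a median length of 1093.5 bp against 2166 bp, and 63 of 70 had a single TSS (90% against 73.5%). Among genes with 1 TSS and a length under 2000 bp, 4 of 52 members (7.69%) were bound against 20.0% of all 5787 such genes.

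**Figure D1:**
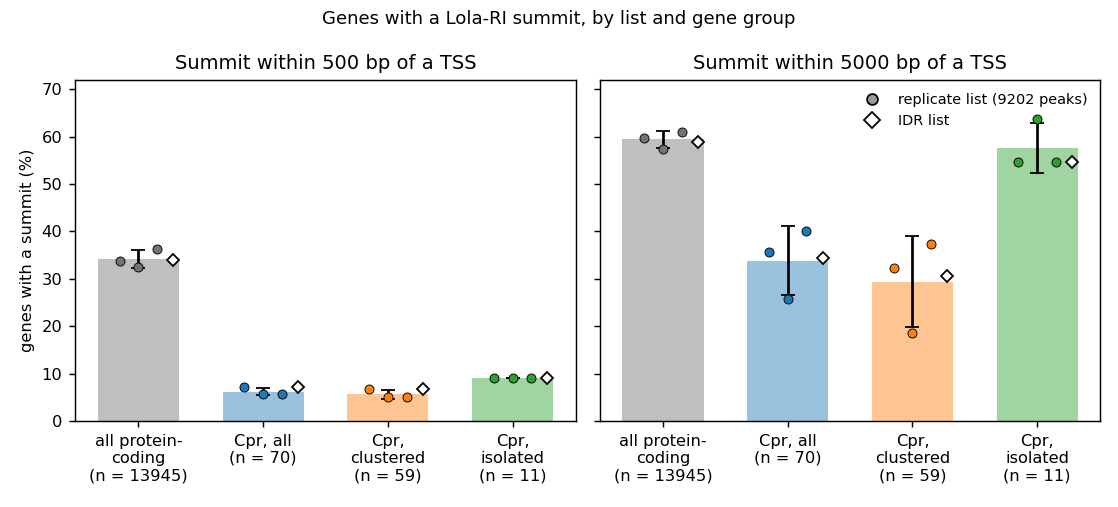
Share of genes with a Lola-RI summit within 500 bp (left) or 5000 bp (right) of a TSS, in percent, for all protein-coding genes, all Cpr genes, and Cpr genes that share or do not share a cytological number. Circles are the 3 replicate lists shortened to 9202 peaks, bars their mean with SD, and diamonds the IDR list. At 500 bp every Cpr value lies below 10%, and at 5000 bp the clustered members lie lowest, with replicate 2 at 18.6%.

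Weak peaks added members, at scores below the IDR threshold. The pooled list of 30000 peaks had a summit within 500 bp of 15 members (21.4%, against 48.1% of all protein-coding genes). The 10 added members were Cpr47Ea, Cpr47Eb, Cpr47Ec, Cpr49Ac, Cpr51A, Cpr57A, Cpr67B, Cpr73D, Cpr78E and Cpr97Eb. Apart from Cpr97Eb, Cpr51A and the bound members, genes named here with a pooled summit were named after their values were seen. Their ranks ran from 9604, at Cpr73D, to 24527, at Cpr47Eb, with a median of 17530. Of the 10, 5 had a promoter summit in all 3 full replicate lists. These were Cpr49Ac, Cpr51A, Cpr57A, Cpr67B and Cpr73D.

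Cpr73D, at the head of that group, had ranks 12542, 9448 and 7981 in replicates 1, 2 and 3. At Cpr51A they were 13608, 14092 and 11210, and at Cpr67B 17364, 14276 and 14271. Of these values, that of Cpr73D in replicate 3 was within the first 9202 and the others were not. In the full lists 18, 12 and 16 members were called (21.9% ± 4.36, SD, n = 3), against 49.9%, 47.7% and 51.2% of all protein-coding genes. No list of any kind, pooled or replicate, held a summit within 500 bp of 48 members (68.6%, against 42.8% of all protein-coding genes).

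**Figure D2:**
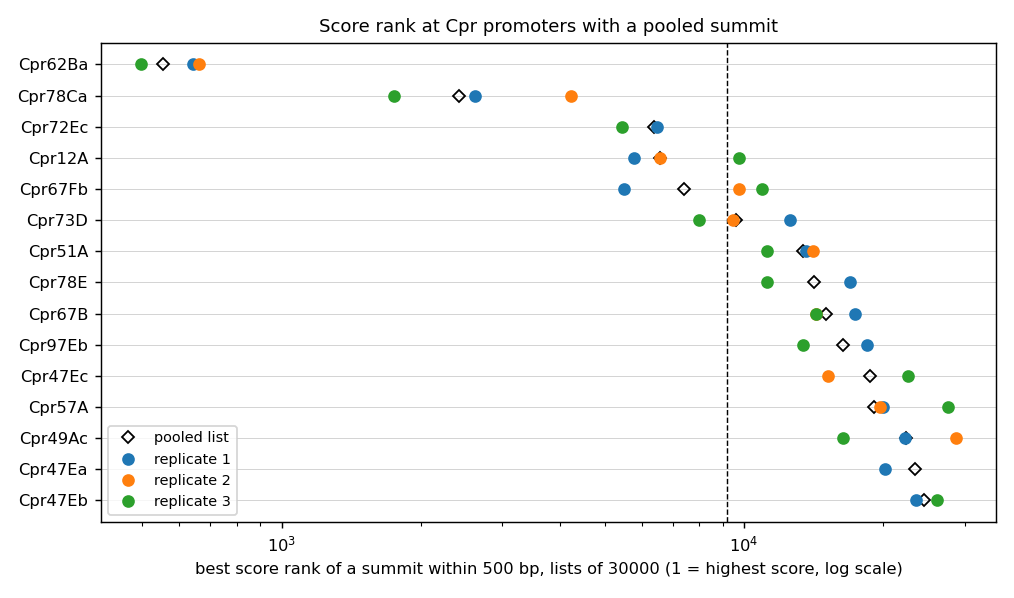
Best score rank of a summit within 500 bp of each Cpr gene that had one in the pooled list, on a log axis where 1 is the highest score. Filled circles are the full replicate lists and open diamonds the pooled list. The dashed line marks rank 9202, the length of the IDR list, with 5 members to its left in the pooled list and 10 to its right.

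The rank of bound members did not set them apart. Their median rank in the IDR list was 6390 (n = 5), a lower score than the 3845 of all 4743 bound protein-coding genes. In the shortened lists of replicates 1, 2 and 3 the medians were 5494 (n = 5), 4337.5 (n = 4) and 3593.5 (n = 4), against 3750, 4027 and 4076. In replicate 3 the members were thus on the other side of all bound genes. The same turn was seen with a window of 250 bp, where the medians were 1487.5 and 3967, and whenever 1 replicate was left out.

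Within 5 kb of a TSS, 24 of 70 members (34.3%) had an IDR summit, against 58.9% of all protein-coding genes. Replicates 1, 2 and 3 gave 25, 18 and 28 members, or 33.8% ± 7.33 (SD, n = 3), against 59.8%, 57.4% and 61.0%. Replicate 2 was lowest in both and dropped further for the Cpr genes. A summit within 5 kb in all 3 shortened lists was found for 16 members (22.9%, against 52.1%). In the pooled list 45 members (64.3%) had a summit in reach, against 70.1%. In the full lists of replicates 1, 2 and 3 there were 50, 34 and 47. Those are 71.4%, 48.6% and 67.1% of members, against 72.7%, 68.9% and 72.1% of all protein-coding genes. The Cpr share was thus nearer to that of all genes among weak peaks, and replicate 2 remained lowest. Among genes with 1 TSS and under 2000 bp, 17 of 52 members (32.7%) had a summit in reach, against 51.3% of all such genes.

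Many of these summits lay at promoters of other genes. The 24 members shared 26 distinct IDR summits, of which 5 were at Cpr promoters and 11 at promoters of other protein-coding genes. A further 7 were intergenic and 3 inside other genes, all over 500 bp from any TSS. Of all 9202 IDR summits, 55.5% lay within 500 bp of some TSS. For 10 of the 26 the nearest TSS was that of a Cpr gene. When each summit counted for the nearest TSS only, 9 members had a summit within 5 kb (12.9%, against 31.9% of all protein-coding genes). The promoter count stayed at 5 (7.14%, against 27.1% of all protein-coding genes). The share of all genes thus also fell under this rule.

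The highest-scoring summit near the family, at rank 317, was 3987 bp from Cpr78Cc and lay at the promoters of CG11309 and CG7632. Its ranks were 165, 241 and 658 in replicates 1, 2 and 3. The second, at rank 370, lay inside Cpr73D but 103 bp upstream of a TSS of Ogdh, the gene of an enzyme of the citric acid cycle, with ranks 437, 492 and 328. The summit 995 bp into Cpr51A, at rank 763, was likewise at the promoter of a gene within it, CG30197, with ranks 1080, 698 and 703. In every replicate all 3 sites ranked above each Cpr promoter other than that of Cpr62Ba.

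Some intergenic sites had a Cpr gene as the nearest. At 72E, the summit upstream of Cpr72Eb had ranks 5168, 4456 and 5962, and the one 1288 bp upstream of Cpr72Ea, at IDR rank 6241, had ranks 5895, 5660 and 8769. With the Cpr72Ec summit, each of the 3 members of this group had a separate summit upstream. Upstream of Cpr51A, 3083 bp from its TSS, a summit at rank 1689 had ranks 1521, 1255 and 2885. The summit 1091 bp from the Cpr49Ad TSS lay beyond the gene's 3′ end, at rank 4918, with ranks 4825, 9934 and 3738 in the full lists.

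Measured without a window, the median distance from a Cpr gene to the nearest IDR summit was 9605.5 bp, with quartiles of 3267.25 and 16661.5 bp, against a median of 3146 bp for all protein-coding genes. Medians for replicates 1, 2 and 3 were 10017.5, 14603.5 and 7982.5 bp, against 3073, 3445 and 2728 bp. Each replicate put the Cpr median above that of all genes. The nearest summit was over 10 kb away for 35 of 70 members (50%) and for 26.9% of all protein-coding genes. The farthest member, Cpr76Bb, was 36443 bp from a summit. In the pooled list the medians were 3324.5 bp and 659 bp, and 17.1% of members and 17.9% of all protein-coding genes were over 10 kb from a summit.

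**Figure D3:**
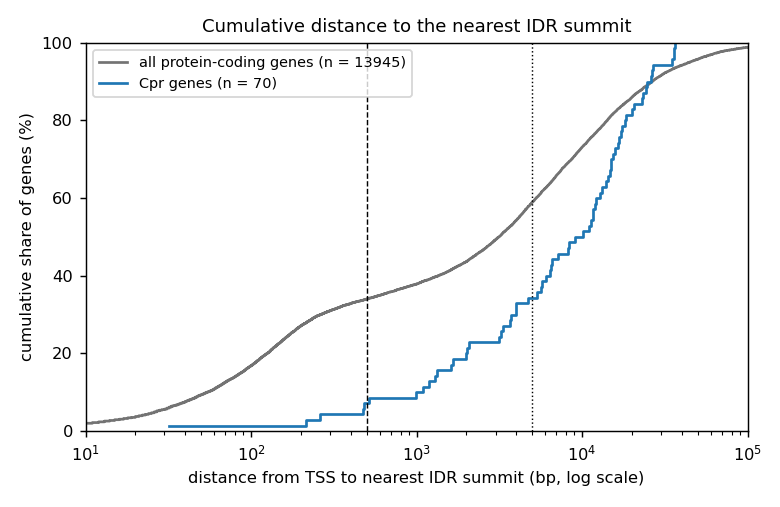
Cumulative share of genes, in percent, by distance from a TSS to the nearest IDR summit (log axis), for the 70 Cpr genes and all 13945 protein-coding genes. Dashed and dotted lines mark 500 bp and 5 kb. The Cpr curve lies below that of all genes at both lines, with 7.14% against 34.0% at the first and 34.3% against 58.9% at the second.

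Cytological numbers divide the family into 15 clusters, in which 2 or more members share a number (59 genes), and 11 isolated genes. At promoters the difference between these groups depended on the list. In the IDR list, of the clustered genes 4 were bound (6.78%) and of the isolated genes 1 was (9.09%), a difference of -2.31 percentage points that rests on 1 gene. The differences in replicates 1, 2 and 3 were -2.31, -4.01 and -4.01. The isolated gene called was Cpr12A in replicates 1 and 2 but Cpr73D in replicate 3, and 0 of 11 were called in all 3. The sign turned to 3.40 when clusters were formed by number and letter or by position, since distant genes such as Cpr30B and Cpr30F then counted as isolated. In the full lists of replicates 1, 2 and 3, which add weak peaks, the clustered share was 22.0%, 11.9% and 20.3%. The isolated share was 45.5%, 45.5% and 36.4%, with no overlap, and that of all protein-coding genes 49.9%, 47.7% and 51.2%. By letter or position the differences there were -10.9, -16.3 and -15.0 points, of the same sign as by number.

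Within 5 kb, 18 clustered members (30.5%) and 6 isolated members (54.5%) had an IDR summit, a difference of -24.0 percentage points. The clustered share was 32.2%, 18.6% and 37.3% in replicates 1, 2 and 3, and the isolated share 54.5%, 63.6% and 54.5%. The groups did not overlap, but 1 of the 11 isolated genes makes 9.09%. All protein-coding genes had 59.8%, 57.4% and 61.0%, so the isolated share was near that of all genes. With clusters by position, where another member lies within 10 kb, the shares were 32.7% of 49 and 38.1% of 21, a difference of -5.44 points. In the replicates the shares by position were 32.7%, 18.4% and 38.8% for clustered and 42.9% in each for isolated genes. With weak peaks included, the direction at 5 kb also depended on how a cluster was defined. The pooled list gave -20.8 points by number and 3.40 by position, and the full list of replicate 3 gave -6.63 and 7.48. In the full lists of replicates 1 and 2 the difference was negative both ways, at -12.3 and -39.4 by number and -6.80 and -19.0 by position.

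Clustered and isolated genes also differed in their surroundings. The 18 clustered members with a summit in reach had 15 distinct summits, of which 5 were at promoters of other protein-coding genes, while the 6 isolated ones had 11, of which 6 were at such promoters. The TSS of a protein-coding gene that is not a Cpr gene lay within 5 kb of 9 of 11 isolated and 35 of 59 clustered members. Neighbours that are Cpr genes themselves were not counted here. Over all members, a summit within 5 kb was found at 18 of the 44 with such a neighbour (40.9%) and at 6 of the 26 without (23.1%). Among clustered members the counts were 13 of 35 (37.1%) with a neighbour and 5 of 24 (20.8%) without. Among isolated members they were 5 of 9 (55.6%) and 1 of 2 (50%). The same split of all protein-coding genes is not given here. The part that neighbours play in the difference was not tested.

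**Figure D4:**
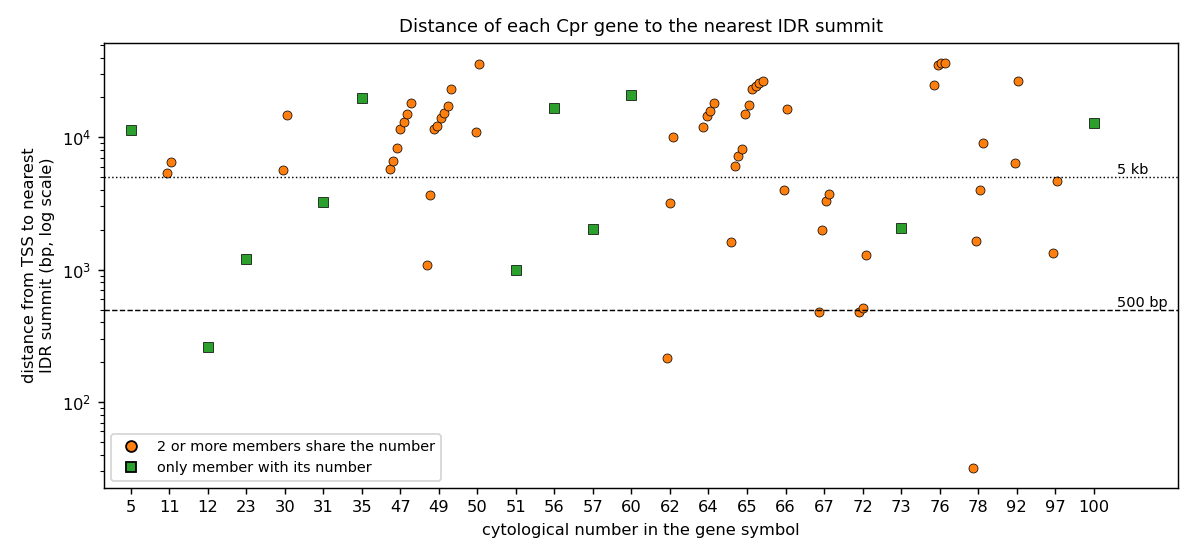
Distance from the TSS of each Cpr gene to the nearest IDR summit, in bp on a log axis, by the cytological number in its symbol. Circles are members that share a number and squares are isolated members. Only 5 points lie below the dashed 500 bp line, and all members of numbers 47, 50, 64 and 76 lie above the dotted 5 kb line.

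By chromosome, 4 of 35 members on 3L and 1 of 4 on X were bound, and none of the 21 on 2R, the 5 on 2L or the 5 on 3R. IDR summits had a similar density throughout these arms, with 64.0 per Mb as the lowest value (3R) and 71.9 per Mb as the highest (3L). How often all protein-coding genes were bound was not compared between chromosomes. Of the 15 clusters, 4 had a bound member, in each case 1, at numbers 62, 67, 72 and 78, and 7 had no member within 5 kb of an IDR summit. The member nearest to a summit was Cpr11B at 5345 bp for number 11 and Cpr30F at 5658 bp for number 30. For number 47 it was Cpr47Eg at 5742 bp, for number 50 Cpr50Cb at 10995 bp and for number 64 Cpr64Ad at 11925 bp. For number 66 it was Cpr66Cb at 3981 bp, for number 76 Cpr76Bd at 24685 bp and for number 92 Cpr92F at 6420 bp. Within one cluster the distances ranged widely, from 1091 bp at Cpr49Ad to 23278 bp at Cpr49Ah. The Cpr65A and Cpr65E genes share a number but lie at separate places on 3L. Their distances ran from 7170 bp to 26524 bp for Cpr65A and from 1608 bp to 8204 bp for Cpr65E.

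Compact blocks of Cpr genes held few summits. The 12 blocks that share number and letter hold 49 members over 212.8 kb, from the first gene's start to the last gene's end, and contained 5 IDR summits. That is 23.5 summits per Mb, against 68.7 per Mb over the 6 chromosomes and arms analysed. The replicate lists gave 28.2, 18.8 and 28.2 per Mb (25.1 ± 5.43, SD, n = 3). In the pooled list the density was 169.2 per Mb against 224.1, so the gap was narrower among weak peaks.

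The 5 IDR summits lay in 49A, 62B, 67F, 72E and 78C, and the other 7 blocks had none. Of these 7, the blocks 50C, 64A, 65E, 76B and 97E had no pooled summit between their first and last gene either. Around 76B, with 4 members on 3L from 19517552 to 19538289, the flanking IDR summits were 74.2 kb apart. Around 65A, where 7 Cpr genes are interspersed with Lcp65A larval cuticle genes on 3L from 6131242 to 6161589, they were 60.2 kb apart, with 7 pooled summits inside. At 50C they were 212.3 kb apart, the longest such stretch among the blocks.

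**Figure D5:**
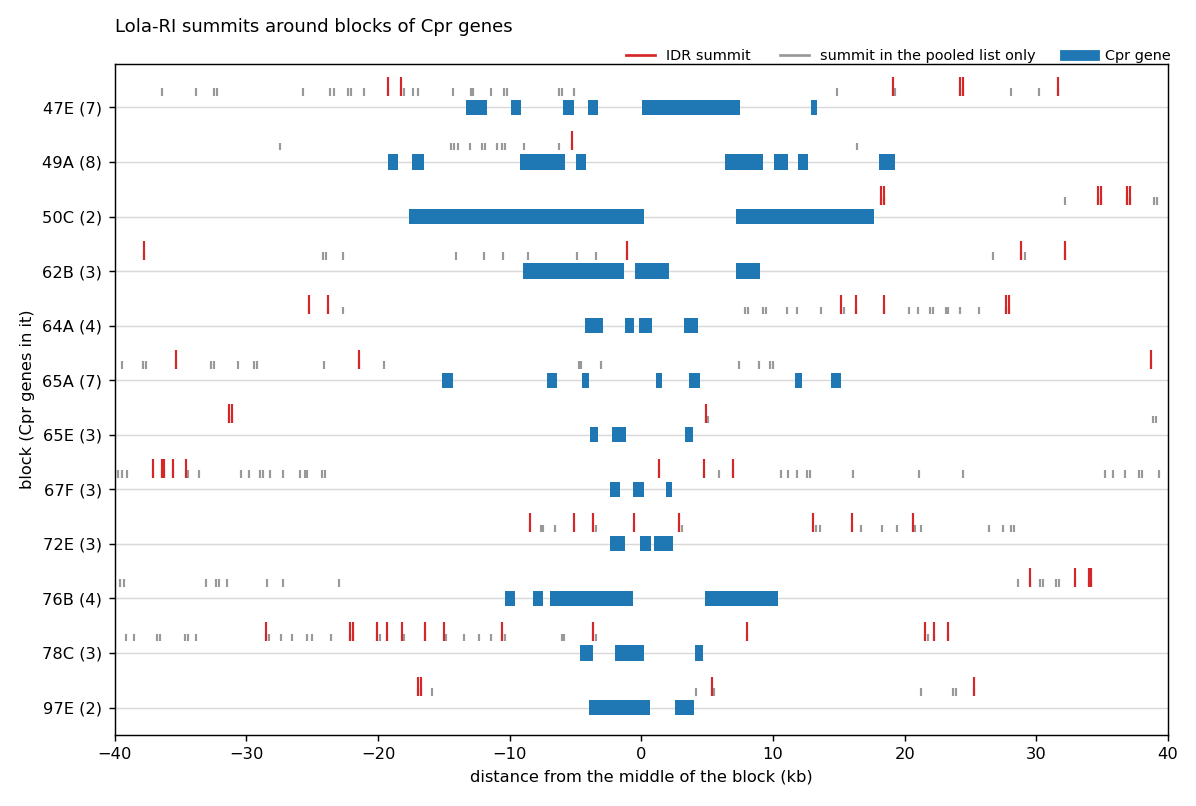
Summits around the 12 blocks of Cpr genes that share a cytological number and letter, on a common scale of distance from the middle of each block (kb). Filled boxes are Cpr genes, tall lines IDR summits and short lines summits found in the pooled list only. Blocks 50C, 64A, 65E, 76B and 97E hold no line between their first and last gene, while 72E has IDR summits between and beside its genes.

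A sequence feature that the choice of genes did not use was common, though not general, among promoters of the family. A TATA box, the letters TATAAA with their first base between -45 and -20 of the 5′-most TSS on the gene's strand, was present in 39 of 70 members (55.7%) and in 8.81% of all protein-coding promoters. It was found in 32 of 59 clustered and 7 of 11 isolated members. Among all protein-coding genes, 14.3% of the 1229 with the box were bound in the IDR list, and 35.9% of those without. Replicates 1, 2 and 3 gave 13.9%, 13.3% and 14.4% with the box and 35.6%, 34.3% and 38.3% without. Among Cpr genes the shares were 2 of 39 (5.13%) with it and 3 of 31 (9.68%) without. Replicates 1, 2 and 3 gave 2, 2 and 1 members with the box and 3, 2 and 3 without. These counts are too small for a comparison within the family.

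Core promoters are shown to let these features be compared between the 5 bound members and members far from any summit, namely the farthest members of blocks 64A, 65A and 76B. Each line gives 60 bases that end directly before the 5′-most TSS, on the gene's strand, from dm6, with a TATA box in the stated range in capitals.
Cpr62Ba, chr3L:1831784-1831843, minus strand: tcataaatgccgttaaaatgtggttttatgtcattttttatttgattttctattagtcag
Cpr67Fb, chr3L:10894113-10894172, plus strand: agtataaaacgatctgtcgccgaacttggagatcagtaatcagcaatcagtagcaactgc
Cpr72Ec, chr3L:16367341-16367400, minus strand: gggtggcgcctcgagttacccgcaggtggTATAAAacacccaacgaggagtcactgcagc
Cpr78Ca, chr3L:21292801-21292860, minus strand: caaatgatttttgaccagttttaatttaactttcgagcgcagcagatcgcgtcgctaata
Cpr12A, chrX:13543583-13543642, plus strand: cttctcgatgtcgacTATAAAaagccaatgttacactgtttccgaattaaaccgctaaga
Cpr64Aa, chr3L:4209179-4209238, minus strand: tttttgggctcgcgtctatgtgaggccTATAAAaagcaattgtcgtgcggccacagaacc
Cpr65Ay, chr3L:6158631-6158690, minus strand: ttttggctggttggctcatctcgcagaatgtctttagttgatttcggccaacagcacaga
Cpr76Bb, chr3L:19519589-19519648, plus strand: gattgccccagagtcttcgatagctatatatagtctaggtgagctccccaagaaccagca

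Among the bound genes the box is in Cpr72Ec, starting at -31, and in Cpr12A, starting at -45, the first position of the range. Among the distant genes it is in Cpr64Aa, starting at -33. Cpr64Aa was 18126 bp, Cpr65Ay 26524 bp and Cpr76Bb 36443 bp from an IDR summit. Cpr67Fb has the letters farther upstream, outside the range. Only the exact letters TATAAA were counted, so the similar run TATATATA in Cpr76Bb was not. By that exact count, some bound and some distant members have the box and others lack it. The genes shown are too few for a comparison of the groups.

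In promoters of 300 bases, 250 before and 50 from the TSS on, TATAAA on either strand was found in 70% of Cpr genes against 45.8% of all protein-coding genes. Lower shares of Cpr promoters held GATAAG (5.71% against 18.9%), the replication-related element TATCGATA (1.43% against 9.36%) and CAGCTG (11.4% against 17.7%). AAGGTCA, a site of nuclear receptors such as FTZ-F1, was in 0 of 70 Cpr promoters against 2.11%, and AGGTCA in 3 of 70 (4.29%) against 5.88%. The initiator core TCAGT (60% against 51.5%), GAGAG (32.9% against 29.7%) and CACGTG (1.43% against 4.20%) complete the set. A match describes letters and not a bound site.

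Other genes of cuticle formation were counted in the same way at 500 bp, against the same 34.0% of all protein-coding genes. Cuticle protein genes with other symbols had a low share as the Cpr genes did, with 3 of 30 (10%). Each replicate repeated this share. The bound genes were Lcp2 and Lcp3, which share a summit at rank 26, and Lcp4 at rank 4401. Which of the 30 proteins carry the Rebers and Riddiford consensus was not examined, so they are not taken as a separate protein family. Of the 25 Tweedle genes, which encode another family of cuticle proteins, 1 was bound (4%), TwdlG at rank 2194, with ranks 2120, 3949 and 1783 in the replicates.

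The chitin list joins genes that make or organise chitin with genes of chitinases and of chitinase-like growth factors. Its members were bound more often, at 18 of 28 (64.3%), with 63.1% ± 2.06 over the replicates (SD, n = 3). The highest-ranked were exp at 230, obst-B, which encodes a chitin-binding protein, at 327, and Idgf3, which encodes a chitinase-like growth factor, at 512. In the tanning list 1 of 7 was bound (14.3%, with 19.0% ± 8.25 over the replicates), namely Pu, the GTP cyclohydrolase gene of pterin synthesis, at rank 324. In the apical matrix list 4 of 9 were bound (44.4% in each replicate), led by f at rank 3395, tyn at 4250 and dpy at 7566. Of these, f encodes an actin-bundling protein and not a matrix protein, so the share includes a gene that does not match the list's name. Of the epidermal and moulting regulators 11 of 17 were bound (64.7%, with 66.7% ± 6.79 over the replicates), led by Eip75B, ftz-f1 and Eip78C at ranks 1, 4 and 160.

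Gene structure differed between these lists. The median gene length was 749.5 bp for the other cuticle proteins and 1088 bp for Tweedle, against 4758 bp for the chitin genes and 33354 bp for the regulators. A single TSS was annotated for 86.7% and 96% of the first pair and for 60.7% and 23.5% of the second. The part of TSS number in these shares was not tested. Cpr genes resembled the first pair in length, TSS number and share bound.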

How the data were processed

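Per the deposited text descriptions, the authors called peaks separately for the 3 replicates and for their pool against a shared control, and derived the IDR list from these. That control was not analysed here. The aligner, the caller and the IDR cutoff are named in none of the sources used here. Each full list holds 30000 peaks, and the IDR list equals the first 9202 of the pooled list by score. The score of a deposited peak was used only for ranks. The authors' −log10 q value is the same for all IDR peaks and was not used. The summit is the peak start plus the deposited offset.

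Gene models were Ensembl release 115 on release 6 (dm6 coordinates), with sequence from RefSeq's release 6 genome. All peaks lie within its chromosome lengths. A gene was called when a summit lay within 500 bp or 5 kb of any TSS, and a summit counted for every gene in reach. Replicate lists were used whole and shortened to 9202. Python 3.11.15, numpy 2.4.6 and pandas 2.3.3 were used, and the distance code was tested on simulated summits. No tests were run, because there is 1 group and genes are not replicates. Members and gene lists were chosen with earlier results of these data known. Of the other listed symbols 2 (Dat and dp) had no match and 3 were matched by synonym.

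Named genes are the bound members, each cluster's member nearest to an IDR summit, the next 5 members outside 500 bp, and up to 3 top-ranked bound genes per other list. Others were named after their values were seen. The TATA range and the comparison with short single-TSS genes were set after the data were seen.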

Additional observations from a re-analysis of the deposited data

How the results depend on the processing

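The share of bound Cpr genes stayed below that of all protein-coding genes in 12 of 12 alternatives at 500 bp and 8 of 8 at 5 kb. The count at 500 bp, 5 in the IDR list, was 2 with a window of 250 bp, 2 with the 5000 highest-scoring IDR peaks, 2 in all 3 shortened lists and 15 in the pooled list, and ran from 2 to 3 without 1 replicate (a summit in both others). The count at 5 kb, 24 in the IDR list, was 45 in the pooled list and 9 with nearest TSSs only (12.9%, against 31.9% of all protein-coding genes). The difference of clustered and isolated genes at 500 bp, -2.31 percentage points, turned to 3.39 with 250 bp, with the 5000 highest-scoring peaks and in all 3 shortened lists, and to 3.40 with clusters by letter or position. It was -9.71 with 1000 bp and -17.7 in the pooled list, and ran from -5.70 to 5.08 without 1 replicate. The median rank was 1487.5 with 250 bp (all bound genes 3967) and 4903 with 1000 bp (3649), and ran from 1782.75 to 3419.5 without 1 replicate (all bound genes 3472.25 to 3626), so that with 250 bp and in each such case the members' median was the higher-scoring one. The median distance was 3324.5 bp in the pooled list and 14930.5 bp for all 3 replicates, and ran from 11127 to 14930.5 bp without 1 replicate. The cause of these shifts was not tested. Depth is unknown, and its part in these counts was not tested. No paired analysis was possible because there is 1 group.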
